A study of Mus musculus with 12 samples.

Results

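The genes described here write, keep and remove 5-methylcytosine in hematopoietic stem and progenitor cells, and are 9 of the 35999 genes in the table: the DNA methyltransferases Dnmt1, Dnmt3a and Dnmt3b, the hemimethylated-DNA reader Uhrf1, the methylcytosine dioxygenases Tet1, Tet2 and Tet3, and the isocitrate dehydrogenases Idh1 and Idh2. They were chosen by name and not by a cut on their values, with earlier results of these data known. RNA was sequenced from LSK cells, the bone marrow fraction without lineage markers and with Sca-1 and KIT, home to the hematopoietic stem cells and the multipotent progenitors. There were 12 libraries, 6 from mice labelled WT and 6 from mice labelled FancgKO, which carry a homozygous knockout of Fancg (Fancg-/-), a gene of the Fanconi anemia core complex. No treatment, strain, age or sex was given in the sources used here, and the libraries of both genotypes carry the numbers 2 to 7.

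Methylation of CpG sites is laid down on unmethylated DNA by DNMT3A and DNMT3B and copied after replication by DNMT1, which UHRF1 brings to the hemimethylated sites of new DNA. TET enzymes oxidize 5-methylcytosine in a reaction that consumes α-ketoglutarate, and IDH1 and IDH2 make α-ketoglutarate in the cytosol and in mitochondria. DNMT3A, TET2, IDH1 and IDH2 are among the genes most often mutated in clonal hematopoiesis and acute myeloid leukemia, the malignancy to which Fanconi anemia predisposes. The comparison between genotypes asks whether transcripts of this machinery differ in LSK cells that lack FANCG.

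The deposited values, called signal here, are estimated read counts scaled by a size factor for each library, and are not divided by gene length. A library held between about 1235240 and 2473096 reads, judged from the value on which genes with a single read pile up. A single gene, Lars2, made up 15.6% to 36.2% of the signal of each library. Of the LSK markers, Kit lay between 283 and 435 and Cd34 between 528 and 728, while Ly6a, which encodes Sca-1, lay between 4.84 and 17.4. Slamf1 lay between 3.88 and 34.8 and Procr between 0 and 21.9. S100a8, S100a9 and Cd3e, which mark mature cells, stayed at or below 2.54. However, 8 of 24 markers of lineage cells had a mean of at least 10, led by Mpo with up to 1650, Ighm with up to 624 and Ebf1 with up to 288. The summed signal of these 24 was 825 to 2318 in WT and 962 to 2450 in Fancg KO, and 0 of the 8 had an unadjusted p under 0.05. Of the 9 LSK markers tested, 1 did, where 3.67% of all genes tested did. That marker was Flt3, a receptor of multipotent progenitors, which is named after its values were seen. It had a log2 fold change of -0.51 in Fancg KO against WT (limma, adjusted p = 0.9996). Summed LSK marker signal was 1706 to 2255 in WT and 1381 to 2086 in Fancg KO. Fancg itself did not separate the labels, with 4.76 to 24.1 (median 8.59) in WT and 4.46 to 14.5 (median 7.91) in Fancg KO (two-sided exact permutation test, p = 0.636), so directions below are those between libraries labelled KO and WT. WT replicate 3 and KO replicate 7 stood apart by a low sum of 4 Y-linked genes (26.6 and 49.7, against 189 to 435 in the others), and values without both are given where they change a result.

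Dnmt1 and Uhrf1, the genes of maintenance methylation, had the highest levels per length of transcript. Per kilobase of the longest coding transcript, the mean signal over the 12 libraries was 108 ± 18.2 (SD) for Dnmt1 and 73.7 ± 13.0 for Uhrf1, followed by 44.7 ± 7.69 for Idh2 and 32.6 ± 4.91 for Dnmt3b. Tet3 at 11.8 ± 2.13 and Tet2 at 11.4 ± 4.02 came next. Idh1 (4.47 ± 2.20), Dnmt3a (2.84 ± 0.985) and Tet1 (0.617 ± 0.106) closed the order.

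By the longest transcript, some neighbours in this order kept their places in most libraries and others did not. Such counts do not cover the choice of length, which is shared by all libraries. Dnmt1 was above Uhrf1 per kilobase in 11 of 12 libraries, Uhrf1 above Idh2 in 12 of 12, and Idh2 above Dnmt3b in 11 of 12. Dnmt3b exceeded Tet3 in 12 of 12 libraries, by a median of 2.77 times. Tet3 and Tet2 did not differ beyond their spread, since Tet3 was the higher in 7 of 12 libraries and the ratio ran from 0.506 to 2.11. Idh1 was above Dnmt3a in 10 of 12 libraries, and Dnmt3a above Tet1 in 12 of 12.

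The places of Dnmt3a, Tet1 and Idh1, and the gap between Uhrf1 and Idh2, depended on the length that was used. GENCODE lists 13 coding transcripts of Dnmt3a, of which the longest has 9.69 kb and the median, with short partial models among them, 0.814 kb. Per kilobase of the median coding transcript, Dnmt3a reached 33.7 and no longer stood below Dnmt3b at 34.0, which was the higher in 7 of 12 libraries. Tet1 at 15.6 then stood above Idh1 at 13.6, and the mean of Tet2 above that of Tet3, although Tet3 was the higher in 7 of 12 libraries. Dnmt1, Uhrf1 and Idh2 led the order by either length, with Idh2 at 73.0 against 77.7 for Uhrf1 per kilobase of the median transcript. By that length Uhrf1 was above Idh2 in 8 of 12 libraries, with a median ratio of 1.02. The files give no values per transcript, so the length behind each gene's signal is not known.

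**Figure D1:**
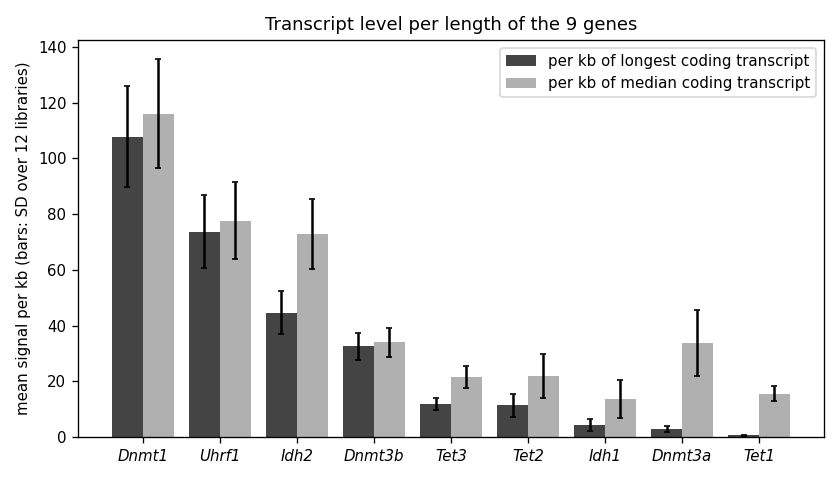
Mean signal per kilobase of the 9 genes over all 12 libraries, divided by the length of the longest (dark bars) or the median (light bars) coding transcript, with the SD over the libraries as error bars. Dnmt1 leads at 108 and Uhrf1 follows at 73.7 per kilobase of the longest transcript, while Dnmt3a moves from 2.84 to 33.7 with the length used.

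A difference between the genotypes was detected for 0 of the 9 members. Of the 9, 8 had a mean signal of at least 10 and were tested with limma (two-sided, on log2(signal + 1)) among 8887 genes, and 0 of the 8 had an unadjusted p under 0.05, against 3.67% of all genes tested. The adjusted p (Benjamini-Hochberg over all genes tested) was 0.9996 for each of the 8, and 0% of all genes tested had an adjusted p under 0.05. The WT and Fancg KO libraries overlapped for 9 of the 9 members, and they did not overlap for 0.09% of all genes tested. The log2 fold change, Fancg KO minus WT, was below 0 for 7 of the 9, while 50.7% of all genes tested lay above 0, but for several of them the sign changed with a single library or another scaling. Without WT replicate 3 and KO replicate 7, the log2 fold change was 0.0479 for Dnmt3b and 0.00193 for Uhrf1, 0.12 for Tet3 and -0.0429 for Dnmt3a.

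**Figure D2:**
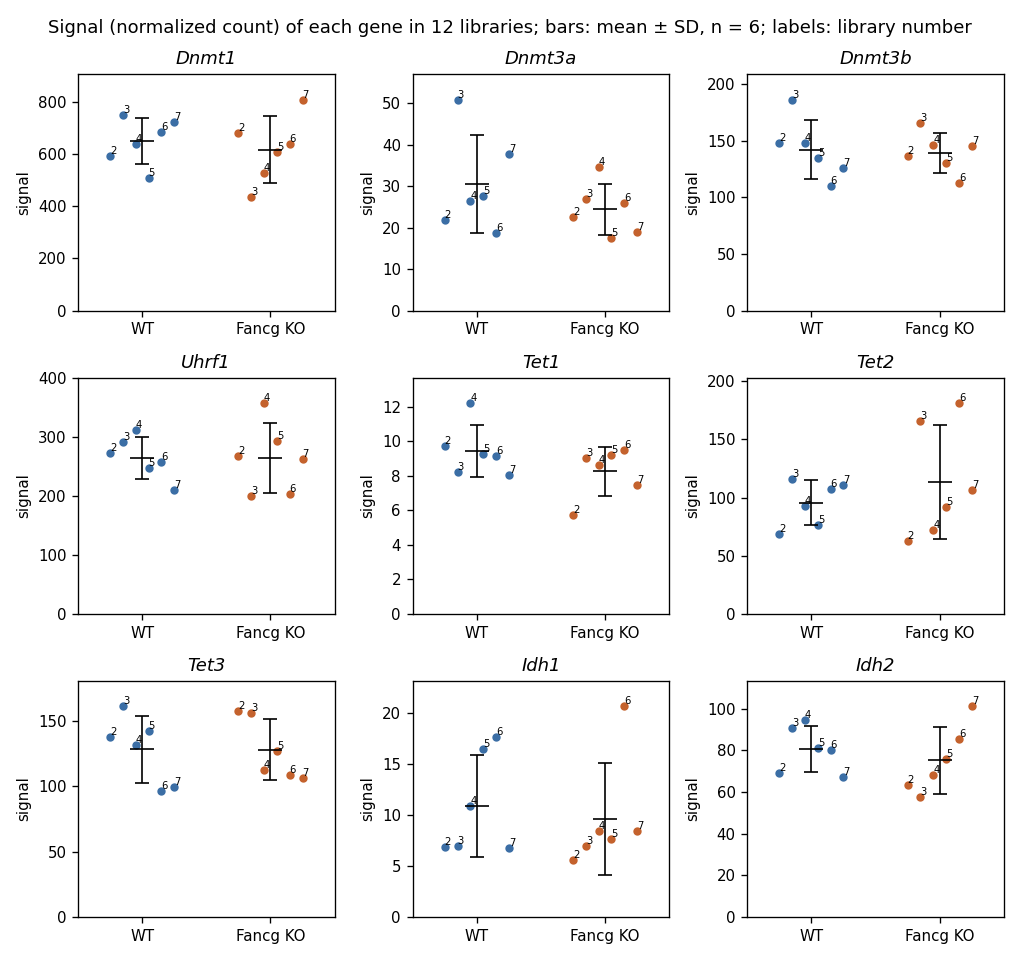
Signal of each of the 9 genes in the 6 WT (blue) and 6 Fancg KO (orange) libraries, each point labelled with its library number, with the mean and SD in black. The genotypes overlap in every panel, and Tet2 spreads more widely in Fancg KO (63.0 to 181) than in WT (68.7 to 116).

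Dnmt1, the maintenance methyltransferase, lies on chromosome 9 from 20907209 to 20959888, minus strand (GRCm38, ENSMUSG00000004099.16). Its signal ran from 508 to 750 in WT, with a median of 662, and from 435 to 807 in Fancg KO, with a median of 624. The lowest and the highest of the 12 values were both in Fancg KO, in replicates 3 and 7. Its log2 fold change was -0.09 (standard error 0.16, exact permutation p = 0.563), and the 95% interval from limma allowed levels in Fancg KO between 0.741 and 1.19 times those in WT. Without KO replicate 3 the difference was 0.00497. At 493 to 869 reads per library, counting alone would give a coefficient of variation of about 4.04%, while the libraries varied by 16.9%.

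Uhrf1 lies on chromosome 17 from 56303321 to 56323486. Its signal had a median of 265 in both genotypes, with 210 to 312 in WT and 200 to 357 in Fancg KO. WT values lay inside the range of Fancg KO values. The genotypes differed by -0.02 on the log2 scale (standard error 0.16, exact permutation p = 0.872), and the interval ran from 0.778 to 1.24 times WT. The ratio of Dnmt1 to Uhrf1 signal, in which the size factor cancels, had medians of 2.38 in WT and 2.36 in Fancg KO, and ran from 1.48 in KO replicate 4 to 3.43 in WT replicate 7. Ratios of signal are compared here between libraries only, since they are not divided by length.

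Dnmt3b, a de novo methyltransferase, lies on chromosome 2 from 153649450 to 153687730. It ran from 110.01 to 186 in WT (median 141) and from 113 to 165 in Fancg KO (median 141). Its log2 fold change of -0.02 (standard error 0.15, exact permutation p = 0.879) had the narrowest interval of the 8 members tested, 0.796 to 1.22 times WT. Dnmt3b varied by 15.1% between libraries, against about 8.56% from counting alone.

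Dnmt3a, the other de novo enzyme, lies on chromosome 12 from 3806007 to 3914443. Its signal ran from 18.8 to 50.8 in WT (median 27.0) and 17.6 to 34.5 in Fancg KO (median 24.3). The highest values were those of WT replicates 3 and 7. With -0.26 (standard error 0.24, exact permutation p = 0.314), Dnmt3a had the most negative log2 fold change of the 8, and the interval ran from 0.582 to 1.19 times WT. Without WT replicate 3 it was -0.11. The ratio of Dnmt3b to Dnmt3a signal was 3.35 to 6.80 in WT (median 5.25) and 4.24 to 7.62 in Fancg KO (median 6.08), so the labels overlapped here too.

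Tet2 lies on chromosome 3 from 133463679 to 133545139. Its signal ran from 68.7 to 116 in WT (median 100.3) and from 63.0 to 181 in Fancg KO (median 98.8). KO replicates 3 and 6, at 166 and 181, exceeded every WT library, while KO replicate 2 lay below every WT library. Between genotypes the log2 fold change was 0.16 (standard error 0.25, exact permutation p = 0.574), with an interval of 0.776 to 1.62 times WT, and without KO replicate 6 it was 0.0065.

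Tet3, on chromosome 6 from 83362373 to 83459084, ran from 96.9 to 162 in WT (median 135) and from 107 to 158 in Fancg KO (median 120.1). The labels differed by 0.0045 on the log2 scale (exact permutation p = 0.972), with an interval of 0.788 to 1.28 times WT. The ratio of Tet3 to Tet2 signal had its lowest and its highest value in Fancg KO, 0.601 in replicate 6 and 2.51 in replicate 2, around the WT range of 0.899 to 2.00. Tet1, on chromosome 10 from 62804570 to 62908996, lay below the filter with 8.07 to 12.2 in WT (median 9.21) and 5.76 to 9.50 in Fancg KO (median 8.84). On 4.66 to 16.7 reads per library, its difference of -0.18 on the log2 scale was not detectable (two-sided exact permutation test, p = 0.225).

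Idh2, the mitochondrial isocitrate dehydrogenase, lies on chromosome 7 from 80094846 to 80115392. It ran from 67.2 to 94.6 in WT (median 80.8) and from 57.4 to 101 in Fancg KO (median 72.0). Fancg KO differed from WT by -0.11 on the log2 scale (standard error 0.16, exact permutation p = 0.450), with an interval of 0.732 to 1.17 times WT. Idh1, the cytosolic enzyme, lies on chromosome 1 from 65158616 to 65186500 and was close to the filter, with 6.73 to 17.7 in WT (median 8.94) and 5.65 to 20.7 in Fancg KO (median 8.01). KO replicate 6 held the highest value and WT replicate 6 the next. For Idh1 the log2 fold change was -0.18 (standard error 0.35, exact permutation p = 0.623), and with 5.23 to 24.4 reads per library its interval was the widest, 0.527 to 1.47 times WT. The ratio of Idh2 to Idh1 signal was 4.55 to 13.0 in WT and 4.13 to 12.05 in Fancg KO.

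The ratio of writers to erasers had close medians under the labels. The summed signal of Dnmt1, Dnmt3a and Dnmt3b was 3.50 times that of Tet1, Tet2 and Tet3 in WT (median, from 2.94 to 4.05) and 3.49 times in Fancg KO (from 1.89 to 4.41). The sums are not divided by length. Most of the writer sum is Dnmt1, with a mean signal of 633, against 141 for Dnmt3b and 27.5 for Dnmt3a. The lowest ratio belonged to KO replicate 3, where Dnmt1 was lowest and Tet2 high, and the highest to KO replicate 7. WT replicate 3 held the highest WT value of 5 of the 9 members, namely Dnmt1, Dnmt3a, Dnmt3b, Tet2 and Tet3.

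The other genes of DNA methylation were taken from a list of 55 genes, of which 42 passed the filter. At an unadjusted p under 0.05, 2 of these 42 were higher in Fancg KO, where 1.98% of all genes tested were, and 0 were lower, where 1.69% were. After adjustment 0 of the 42 passed. Their median log2 fold change was -0.01, against 0.00 over all genes tested. The 6 tested partners of the methyltransferases, among them Pcna, Hells and Uhrf2, lay between -0.13 and 0.17, and 0 of them passed. The 13 readers and silencing genes, among them Mbd1, Mbd2 and Setdb1, lay between -0.19 and 0.20, and 0 passed. Of 8 genes of methyl donor supply 0 passed as well. The remaining groups, removal of oxidized cytosine with 6 genes and α-ketoglutarate and 2-hydroxyglutarate metabolism with 9, held 1 passing gene each.

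Tdg encodes the thymine DNA glycosylase that cuts out some of the oxidized cytosines made by TET enzymes. Its signal was 21.05 ± 5.76 (SD, n = 6) in WT, from 11.98 to 28.1, and 29.2 ± 6.19 (SD, n = 6) in Fancg KO, between 21.1 and 38.8. In limma the log2 fold change of Tdg was 0.47 (standard error 0.22, unadjusted p = 0.0463, adjusted p = 0.9996), and the exact permutation p was 0.0433. Sdha encodes the flavoprotein subunit of succinate dehydrogenase, whose substrate succinate inhibits TET enzymes. Its signal was 26.9 ± 3.97 (SD, n = 6) in WT and 34.2 ± 2.77 (SD, n = 6) in Fancg KO, and 1 Fancg KO library, replicate 4 at 29.4, lay within the WT range of 20.6 to 30.6. For Sdha limma gave 0.35 (standard error 0.15, unadjusted p = 0.0389, adjusted p = 0.9996), and the exact permutation p was 0.00649. Both genes were picked from the list by their limma p. The exact test used the same values, so it is no separate support. Without WT replicate 3 and KO replicate 7 the log2 fold changes were 0.24 for Tdg and 0.27 for Sdha, and neither had an unadjusted p under 0.05. Next by p came Sdhc, another succinate dehydrogenase subunit, at -0.36 (exact permutation p = 0.0844). The remaining subunits, named after their values were seen, were Sdhb at -0.33 and Sdhd at -0.09. Sdha was thus the only subunit of the enzyme above 0.

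**Figure D3:**
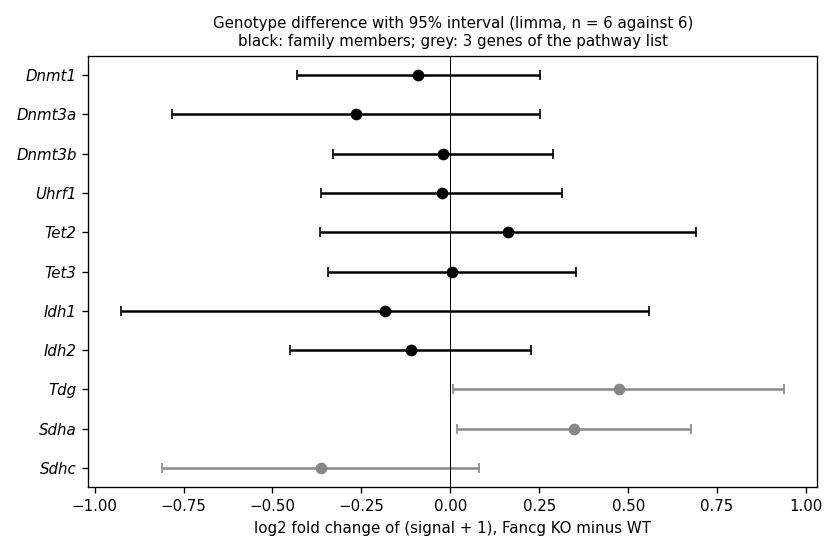
Log2 fold change, Fancg KO minus WT, with its 95% interval for the 8 members that passed the filter (black) and the pathway genes Tdg, Sdha and Sdhc (grey). The intervals of the 8 members include 0, and those of Tdg and Sdha lie just above it before adjustment.

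Dnmt1 and Uhrf1 are textbook S-phase genes, and E2F factors, which drive S-phase transcription, bind near the start sites of many such genes. RefSeq lists 15 promoters of 300 bases (250 before the start and 50 after, GRCm38.p6) for the 9 members. They were searched on either strand, overlapping matches included, for the E2F-type words TTTGGCGC, TTTCCCGC, TTTGCCGC and TTTCGCGC. Of 32851 promoters in the table, 2.26% held at least 1 match, and of the 15 member promoters 2 did, 1 of Dnmt1 and 1 of Uhrf1. Each of the words contains a CpG. These 2 promoters held 33 CpG sites each, more than 91.4% of all promoters, where the median was 7. The share with a match among promoters of like CpG content is not given, so 2 of 15 is not read as an enrichment. A window around 1 match in each of these 2 promoters is shown 5′ to 3′ along the gene, with the match in capitals. Dnmt1 and Uhrf1 are the members for which the relation to cell division was of interest. The Dnmt1 window lies at chr9:20952824-20952853 on the minus strand and its match, on the opposite strand to the gene, begins 219 bases before the start. The Uhrf1 window lies at chr17:56304117-56304146 on the plus strand and its match begins 185 bases before the start. A further match in the same Dnmt1 promoter lies after the start and is not shown.
Dnmt1: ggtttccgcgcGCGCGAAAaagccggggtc
Uhrf1: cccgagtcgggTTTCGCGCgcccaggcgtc
A match is only a stretch of letters and says nothing of binding in these cells.

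The relation of each member to cell division was measured against the mean log2(signal + 1) of 20 cell cycle genes, among them Mki67, Top2a and Mcm2, over the 12 libraries. This mean was 5.861 to 6.402 in WT and 5.57 to 6.48 in Fancg KO and did not differ between them (exact permutation test, p = 0.805). In the deposited values Dnmt1 had r = 0.47 (permutation p = 0.125) and Uhrf1 r = 0.09 (permutation p = 0.770), with Spearman's rho of 0.22 (permutation p = 0.497) and 0.00 (permutation p = 1.0). Neither relation was past the threshold.

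Tet3 and Dnmt3b were lower where the cell cycle genes were higher. Tet3 had r = -0.78 (permutation p = 0.00256, adjusted p = 0.0205 over 8 members by Benjamini-Hochberg) and a Spearman's rho of -0.76 (permutation p = 0.0063). Within WT it had r = -0.77 (exact permutation p = 0.0625) and within Fancg KO r = -0.89 (exact permutation p = 0.0222). Without KO replicates 3 and 6, the libraries farthest from the median, r was -0.76. Dnmt3b had r = -0.71 (permutation p = 0.0106, adjusted p = 0.0426) and rho = -0.68 (permutation p = 0.0182), with r = -0.91 within WT (exact permutation p = 0.025), r = -0.70 within Fancg KO (exact permutation p = 0.118) and r = -0.58 without KO replicates 3 and 6 (permutation p = 0.0757). The relation of Dnmt3b was then no longer past the threshold. Without WT replicate 3 and KO replicate 7, r was -0.73 for Tet3 (permutation p = 0.0131) and -0.84 for Dnmt3b (permutation p = 0.00243). In both genotypes the cell cycle mean was lowest in libraries 2 and 3 and highest in library 6. It was 5.96, 5.86 and 6.40 for these numbers in WT and 5.91, 5.57 and 6.48 in Fancg KO. The values within WT and within Fancg KO share this trend and are not independent of each other. The permutation p values treat the libraries as exchangeable. With the library number as a block, r turned to 0.12 for Tet3 and 0.84 for Dnmt3b (exact sign-flip p = 0.25), and neither call was kept. Over 8867 other genes the median r was 0.09, with 99.5% of them at or above the r of Tet3 and 98.3% at or above that of Dnmt3b.

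These relations moved with the composition of the libraries. The mean of the cell cycle genes had r = 0.84 with the share of Lars2 (permutation p = 0.00040) and r = -0.61 with the log2 number of reads (permutation p = 0.0361). Tet3 had r = -0.79 (permutation p = 0.00322) and Dnmt3b r = -0.78 (permutation p = 0.00188) with the share of Lars2. When the libraries were rescaled to equal sums after removal of the 15 highest genes, an alternative chosen after the values were seen, r was -0.26 for Tet3 (permutation p = 0.405) and -0.14 for Dnmt3b (permutation p = 0.649). With the same rescaling r was higher for every tested member than in the deposited values. Dnmt1 had r = 0.73 (permutation p = 0.00863) and Uhrf1 r = 0.47 (permutation p = 0.124). Idh2 had r = 0.82 (permutation p = 0.00194) and Idh1 r = 0.77 (permutation p = 0.00406). For Tet2 r was 0.46 (permutation p = 0.134) and for Dnmt3a -0.08 (permutation p = 0.800). The r of all other genes is not given under this scaling, so whether the rise is particular to any member is not known. The part of library composition in these relations was not tested.

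Among the other members, Idh1 had r = 0.61 (permutation p = 0.0348, adjusted p = 0.0696) with a Spearman's rho of 0.73 (permutation p = 0.00942), and Idh2 r = 0.62 (permutation p = 0.0303, adjusted p = 0.0696) with rho = 0.51 (permutation p = 0.0933). Of the other genes, 10.4% had an r at or above that of Idh1, 9.85% at or above that of Idh2 and 19.4% at or above that of Dnmt1. Without KO replicates 3 and 6, r was 0.52 for Idh1 (permutation p = 0.125) and 0.40 for Idh2 (permutation p = 0.247), and neither was then past the threshold. Within WT, r was 0.80 for Idh1 (exact permutation p = 0.0611) and -0.04 for Idh2 (exact permutation p = 0.951), and within Fancg KO 0.60 (exact permutation p = 0.214) and 0.91 (exact permutation p = 0.0111). Dnmt3a had r = -0.42 (permutation p = 0.170) and Tet2 r = 0.06 (permutation p = 0.866).

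**Figure D4:**
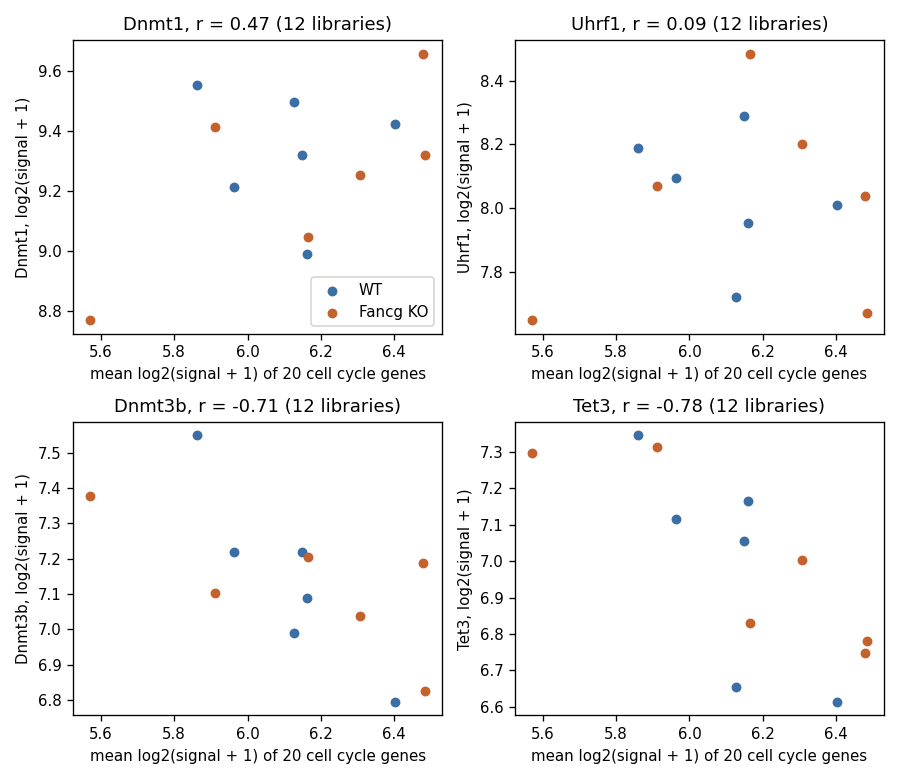
Log2(signal + 1) of Dnmt1, Uhrf1, Dnmt3b and Tet3 against the mean log2(signal + 1) of 20 cell cycle genes, 1 point per library, WT in blue and Fancg KO in orange. Dnmt3b and Tet3 fall from left to right (r = -0.71 and -0.78), Dnmt1 and Uhrf1 show r = 0.47 and 0.09, and the genotypes are mixed along the axis.

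The gene whose values over the 12 libraries were most like those of a member, by Pearson's r on the log2 scale among the genes tested, was H2afx for Uhrf1 (r = 0.93), Sema4b for Dnmt3b (0.92), Slitrk2 for Tet3 (0.92), Sgce for Dnmt3a (0.91), Ruvbl1 for Idh1 (0.88), Prdx2 for Idh2 (0.87), Prkar2a for Tet2 (0.85) and Gtf2f1 for Dnmt1 (0.84). These values are a description, and the highest coefficient among so many genes over 12 libraries is high in any data. Between members, Tet3 and Dnmt3b had r = 0.71, Uhrf1 and Tet2 r = -0.67, and Dnmt1 and Uhrf1 r = 0.11.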

How the data were processed

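LSK cells of 12 mice were profiled by mRNA sequencing with the CATS RNA-seq Kit v2 on an Illumina NextSeq, 1 library per mouse. The authors deposited 1 signal value per gene and library, taken from the table's name and values as estimated counts that were scaled by size factors. The labels name kallisto; the mouse transcriptome and its version are not given in the sources used here. Of the 12 columns 0 were left unused. Values were used as deposited.

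The 8887 of 35999 genes whose mean signal reached 10 were tested with limma 3.58.1 (empirical Bayes with trend, two-sided, no covariate) in R 4.3.3 on log2(signal + 1), a scale that understates changes of low genes. Tests for read counts were not used, because whole reads could not be recovered. Single genes were also tested by exact permutation, and correlations with 100000 permutations in Python 3.11.15 with scipy 1.17.1. Lengths and positions came from GENCODE M21 (GRCm38). Reads per library are approximate, and Idh1 and Tet1 rest on few reads. The limma procedure was tested on simulated data. The members, lists and rule for named genes (all members, the listed genes with an unadjusted p under 0.05 or else the 4 with the smallest p, and the gene most like each member; 1 result under this rule is not reported here) were chosen with earlier results of these data known. Alternatives were other pseudocounts, filters and scalings, limma without trend, a replicate block and left-out libraries. Leaving out both libraries numbered 3, and for correlations the rescaling and leaving out both libraries low in Y-linked transcripts, were added after the values were seen.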

Additional observations from a re-analysis of the deposited data

Results flagged for a closer look

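Idh1 in KO replicate 6 had a signal of 20.7, against 5.65 to 8.49 in the other 5 Fancg KO libraries, and lay far from them by Dixon's criterion. It was the only 1 of 32 groups of 6 libraries examined (the 9 genes, 6 ratios between them and the mean of the cell cycle genes, in each genotype) to do so. By chance about 1 in 20 of such groups would, and 1 in 32 is not above that share. WT replicate 6, at 17.7, was the highest of the WT libraries. Both rest on few reads. Without KO replicate 6 the log2 fold change of Idh1 was -0.41.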

How the results depend on the processing

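Under every alternative that gave a value, 0 of the 9 members reached an unadjusted p under 0.05. Dnmt3a, Tet1, Idh1 and Idh2 kept a log2 fold change below 0 and Tet2 one above 0, but some of these values came close to 0. Leaving out 1 library at a time gave -0.20 to -0.0393 for Idh2, -0.41 to -0.0331 for Idh1 and 0.0065 to 0.31 for Tet2, and Idh2 was -0.0026 without both libraries numbered 3. The sign changed for the other 4. Tet3 was -0.00696 with quantile normalization and -0.00588 with median-of-ratios size factors. With rescaling without the 15 highest genes Dnmt3b was 0.0178 and Uhrf1 0.0141. Without WT replicate 3 and KO replicate 7 Dnmt3b was 0.0479, Uhrf1 0.00193, Tet3 0.12 and Dnmt3a -0.0429, and without both libraries numbered 3 Dnmt1 was 0.0489, Dnmt3b 0.0102 and Uhrf1 0.0799. With 1 library left out the values were -0.17 to 0.00497 for Dnmt1, -0.0897 to 0.0611 for Dnmt3b, -0.12 to 0.0506 for Uhrf1 and -0.0710 to 0.0752 for Tet3. The cause was not tested. Idh1 and Tet1 have no value with a mean signal of at least 50, nor has Dnmt3a, and Tet1 none with quantile normalization, limma without trend or the block.

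Over all genes, 326 had an unadjusted p under 0.05, 836 without a filter, where 21536 genes were tested, and 91 with a mean signal of at least 50, where 3119 were. Without both libraries numbered 3, 1 gene, the pseudogene Gm18853, had an adjusted p under 0.05 (limma, 0.000306). The count of 2 passing pathway genes, Tdg and Sdha, became 0 with a mean signal of at least 50, where 20 of the list were tested and these genes were not among them. It was also 0 without WT replicate 3 and KO replicate 7, without both libraries numbered 3, and with rescaling without the 15 highest genes, where the log2 fold changes were 0.51 for Tdg and 0.38 for Sdha. With 1 library left out the count was 0 to 2, and it was 0 without WT replicate 3, WT replicate 5, KO replicate 2 or KO replicate 7 and 1 without WT replicate 4, KO replicate 3, KO replicate 4 or KO replicate 6. The genes counted were not always these: without KO replicate 6 neither passed, without KO replicate 5 Tdg passed and Sdha did not, and without WT replicate 7 Sdha passed and Tdg did not.

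The replicate numbers are not said to mark shared litters or days. After the genotype mean of each gene was subtracted, the correlation of same-numbered libraries ran from 0.09 to 0.36 (mean 0.20), with 2 of 6 pairs below 0.1. The mean of the other pairs, -0.04, is nearly fixed by that subtraction and is no separate control. A fit with the replicate block gave 476 such genes, and of the pathway list 1, Tdg, passed (adjusted p = 0.889). In that fit the number itself had an unadjusted p under 0.05 for Tet2 (0.0126) and Tet3 (0.0439), as for 14.3% of all genes tested, with adjusted p of 0.194 and 0.332. For 151 genes (1.7%) the number had an adjusted p under 0.05 (limma), where the genotype had 0. With the block the correlation with the cell cycle genes turned to 0.84 for Dnmt3b (exact sign-flip p = 0.25), 0.12 for Tet3, -0.0436 for Idh1 and -0.15 for Tet2. It was 0.78 for Idh2 (exact sign-flip p = 0.344), 0.74 for Uhrf1 (exact sign-flip p = 0.156) and 0.67 for Dnmt1 (exact sign-flip p = 0.25).

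Of the other correlations with the cell cycle genes, Spearman's rho was 0.51 for Idh2. Without KO replicates 3 and 6, r was -0.58 for Dnmt3b, 0.52 for Idh1, 0.40 for Idh2 and -0.0842 for Uhrf1. Within WT it was -0.14 for Dnmt1, -0.29 for Uhrf1, -0.77 for Tet3, 0.80 for Idh1 and -0.0383 for Idh2, and within Fancg KO -0.70 for Dnmt3b and 0.60 for Idh1. With rescaling it rose for every tested member. It was then 0.82 for Idh2, 0.77 for Idh1, 0.73 for Dnmt1, 0.47 for Uhrf1 and 0.46 for Tet2. For Dnmt3a it was -0.0794, for Dnmt3b -0.14 and for Tet3 -0.26. Without both libraries numbered 3 it was -0.52 for Dnmt3b, -0.27 for Uhrf1, 0.79 for Tet2 (permutation p = 0.00433) and 0.62 for Idh1. Tet2 was past the threshold in this fit only. Without WT replicate 3, r was 0.64 for Dnmt1 (permutation p = 0.0349), past the threshold. Leaving out 1 library at a time gave 0.0887 to 0.64 for Dnmt1, -0.32 to 0.34 for Uhrf1, -0.24 to 0.57 for Tet2, 0.51 to 0.71 for Idh1 and 0.43 to 0.79 for Idh2. For Dnmt3b and Tet3 it gave -0.81 to -0.64 and -0.86 to -0.75, past the threshold in every such fit. Tet1, Idh1 and Dnmt3a rest on the fewest reads, and counting alone would give coefficients of variation of about 34.1%, 31.6% and 19.4%. The libraries varied by 17.2%, 49.2% and 34.7% for these genes. For Tet2 they varied by 35.4%, against about 9.94% from counting alone. The cause of this spread was not tested.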
